A study of Mus musculus with 16 samples.

Results

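Macrophages of the pleural cavity were compared with macrophages of the heart in RNA sequencing libraries from 8 week old C57BL/6 mice. Each group had 4 libraries, numbered 2 to 5 in their titles, and a gene was included when its deposited value was 1 RPKM or more in at least 4 of these 8 libraries. Of 24981 genes in the deposited table, 10918 met that rule and 14063 did not. Of the genes included, 313 passed only through pleural libraries and 417 only through heart libraries. RPKM divides the reads of a gene by its transcript length and by the reads of the library, so it sets genes of different length on one scale. The design set sorted macrophages of 3 serous cavities and of the heart side by side in unchallenged animals, and pericardial and peritoneal libraries entered the statistical fit as 2 further groups of 4. Pleural cells came from cavity lavage and cardiac macrophages from heart tissue. In all groups cells were sorted by flow cytometry into TRIzol and flash frozen, their RNA was then extracted by Direct-zol, and the NEBNext Ultra II RNA kit was used for the libraries. No group carried an engineered allele or a treatment in the labels. The sources used here do not state the sort gates, the dissociation of the heart, or whether each library came from its own animal or a pool, so p-values measure the spread between libraries, which may be technical.

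The pleural cavity is the fluid-filled space around the lungs, and most of its resident macrophages belong to the large cavity macrophage type that also fills the peritoneum. Large cavity macrophages depend on the transcription factor Gata6, which is maintained by retinoic acid made in the surrounding tissue, and they float freely until clotting or adhesion factors make them aggregate on injured surfaces. Resident macrophages of the heart lie between cardiomyocytes, vessels and fibroblasts, take up material shed by those cells, and are known for Lyve1, the mannose receptor Mrc1 and the folate receptor Folr2.

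Differences were taken on the log2(RPKM + 0.5) scale and tested with limma across all 16 libraries, with Benjamini-Hochberg adjustment over the 10918 genes. Genes with an adjusted p below 0.05 were called, and folds are given as pleural minus heart with their standard error (SE). By that rule 6794 genes were called, 62.2% of those tested, with 5235 higher in pleural macrophages (47.9%) and 1559 lower (14.3%). The median log2 fold of all tested genes was 0.36, and the libraries of the 2 groups did not overlap in 6375 genes (58.4%), 4887 higher (44.8%) and 1488 lower (13.6%). With an absolute log2 fold of 1 or more as well, 1655 genes were higher (15.2%) and 927 lower (8.49%). RPKM totals were 392970 ± 23873 (SD, n = 4) in pleural libraries and 275547 ± 50417 (SD, n = 4) in heart libraries, and an exact two-sided permutation test gave p = 0.0286, the smallest value that 4 against 4 allows. Alignments ran from 41709634 to 61340862 in pleural and from 57029340 to 70166356 in heart libraries. Because the totals differed, each call was repeated after median-ratio scaling, quantile normalization and scaling to an equal RPKM total. The number of higher and lower genes was 3868 (35.4%) and 2755 (25.2%) after median-ratio scaling, 4183 (38.3%) and 2772 (25.4%) after quantile normalization, and 2644 (24.2%) and 3652 (33.4%) with RPKM totals made equal. Over all genes the median log2 fold moved to 0.08, 0.10 and -0.11 under the 3 scalings in that order, against 0.36 as deposited. A set of 4191 genes (38.4%) was called in the same direction under all 4 scalings, 2638 higher (24.2%) and 1553 lower (14.2%). Every called gene named below kept its direction and its call under all 4 scalings unless the sentence says otherwise. Counts of list members called are to be read against 47.9% of all genes higher and 14.3% lower, and a member that passed the minimum through 1 group only was bound to differ. Where stated, a list was also counted with an RPKM of 1 required in all 8 libraries, which removes such members. Values per library are listed in the order of replicates 2, 3, 4 and 5.

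**Figure D1:**
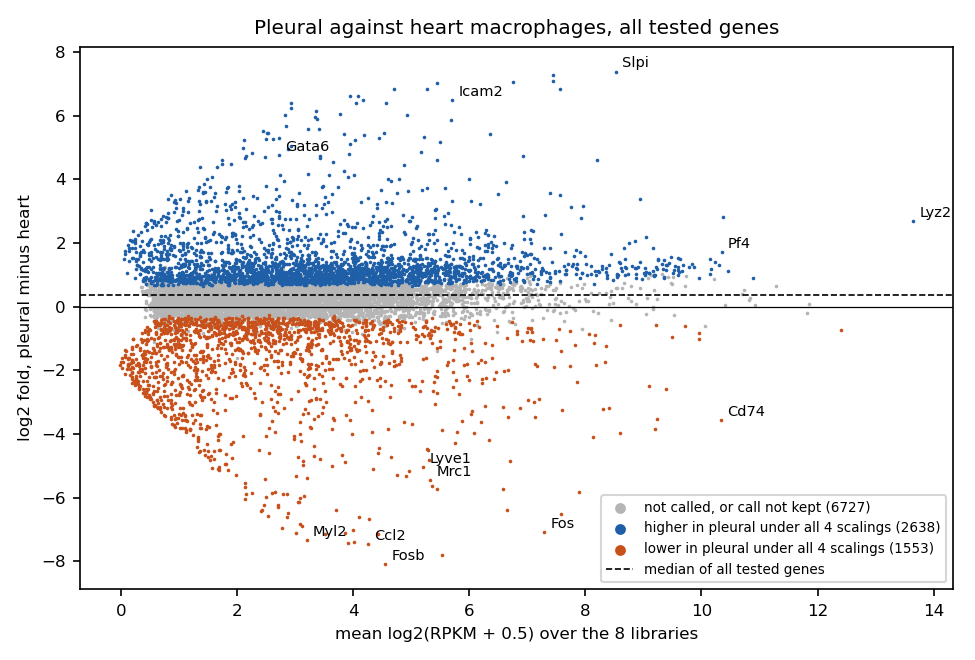
Log2 fold of pleural minus heart macrophages (vertical axis) against mean log2(RPKM + 0.5) over the 8 libraries (horizontal axis), 1 point per tested gene; blue and orange points kept their call under all 4 scalings, grey points did not, and the dashed line is the median fold of 0.36. Blue points (2638) outnumber orange points (1553), and the orange points reach -8.10 (Fosb) while the blue ones reach 7.38 (Slpi).

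The 4 genes that mark the cells followed the labels. Gata6, the factor that defines large cavity macrophages, stood at 33.9, 32.2, 37.2 and 33.1 RPKM in the pleural libraries and 1.58, 0.381, 0.564 and 0.842 RPKM in the heart libraries. Icam2, an adhesion molecule on the large cavity type, stood at 433, 517, 551 and 486 RPKM in the pleural libraries and 5.15, 3.61, 5.17 and 6.75 RPKM in the heart libraries. Lyve1, a hyaluronan receptor of resident cardiac macrophages, stood at 10.8, 5.61, 5.73 and 3.57 RPKM in the pleural libraries and 167, 193, 261 and 234 RPKM in the heart libraries. Mrc1, the mannose receptor, stood at 6.94, 5.38, 5.26 and 4.93 RPKM in the pleural libraries and 227, 226, 358 and 272 RPKM in the heart libraries. None of the 4 genes had overlapping groups, and pleural library 2 held the highest Lyve1 and Mrc1 of the pleural group. Log2 folds were 4.76 ± 0.22 (SE, limma adjusted p = 3.11e-13) for Gata6 and 6.48 ± 0.20 (SE, limma adjusted p = 5.07e-16) for Icam2. For Lyve1 and Mrc1 they were -5.03 ± 0.36 (SE, limma adjusted p = 2.65e-10) and -5.45 ± 0.32 (SE, limma adjusted p = 1.46e-11). In mouse build GRCm38, Icam2 lies at chr11:106377656-106388139, Lyve1 at chr7:110850607-110862953 and Mrc1 at chr2:14229414-14332023.

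Both groups carried general macrophage genes, at different levels. Of 25 genes in that list, all were tested, 12 were higher in pleural libraries, 7 were lower and 6 were not called, with a median log2 fold of 0.43. The share higher was close to the 47.9% of all genes, and at an equal RPKM total 8 were higher and 10 lower. Lyz2, which encodes lysozyme, was the most abundant of these and stood at 32084, 30539, 38382 and 30182 RPKM in the pleural libraries and 3720, 4434, 5763 and 6961 RPKM in the heart libraries. It alone made up 7.67 to 9.07% of the RPKM total in pleural and 1.64 to 2.07% in heart libraries. Adgre1, an adhesion receptor used to identify mouse macrophages, stood at 443 ± 65.8 RPKM in pleural and 205 ± 43.9 RPKM in heart libraries (SD, n = 4), and Itgam, the CD11b integrin chain, at 640 ± 52.4 and 56.2 ± 8.18 RPKM. Csf1r, the receptor for the macrophage growth factor CSF-1, ran the other way, at 189 to 251 RPKM in pleural and 432 to 599 RPKM in heart libraries, with a log2 fold of -1.24 ± 0.19 (SE, limma adjusted p = 1.31e-05). Aif1, which encodes the actin-bundling protein Iba1, and the transcription factor Maf were lower in pleural macrophages as well, with log2 folds of -4.44 ± 0.32 (SE, limma adjusted p = 3.52e-10) and -2.72 ± 0.16 (SE, limma adjusted p = 1.76e-11). Mertk, a receptor for dying cells, was not called, at 18.1 to 26.6 RPKM in pleural and 14.6 to 24.7 RPKM in heart libraries (log2 fold 0.26 ± 0.19 SE, limma adjusted p = 0.228).

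Genes of large cavity macrophages filled the top of the ranking. Of 32 such genes, 31 were tested, 29 were higher in pleural macrophages and 2 were not called, with a median log2 fold of 4.96 and the same 29 under all 4 scalings. Wt1 was below the RPKM minimum, and Cd93 and Fam213b were not called. The list was written with results of these data known, and 5 of its members passed the minimum only through pleural libraries. With an RPKM of 1 in all 8 libraries 19 were higher. Slpi, an inhibitor of leukocyte serine proteases, stood at 4447, 5324, 5008 and 4345 RPKM in the pleural libraries and 33.2, 16.7, 28.1 and 40 RPKM in the heart libraries. Its log2 fold of 7.38 ± 0.26 (SE, limma adjusted p = 4.61e-15) was the highest among the genes named here. Alox15, a lipoxygenase that makes 12- and 15-hydroxy fatty acids, stood at 1942, 1958, 2479 and 2312 RPKM in the pleural libraries and 14.2, 9.5, 13.4 and 17.9 RPKM in the heart libraries, with a log2 fold of 7.28 ± 0.21 (SE, limma adjusted p = 1.95e-16). Prg4, the lubricating proteoglycan lubricin, stood at 1004, 1041, 1687 and 1408 RPKM in the pleural libraries and 12.2, 5.95, 7.83 and 10.9 RPKM in the heart libraries, and Cd5l, a secreted scavenger protein of tissue macrophages, at 524, 469, 539 and 464 RPKM in the pleural libraries and 3.54, 2.58, 3.39 and 3.95 RPKM in the heart libraries. For Prg4 and Cd5l too, each pleural library was far above each heart library. Slpi lies at chr2:164354070-164356507 and Alox15 at chr11:70344147-70390538 in GRCm38.

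**Figure D2:**
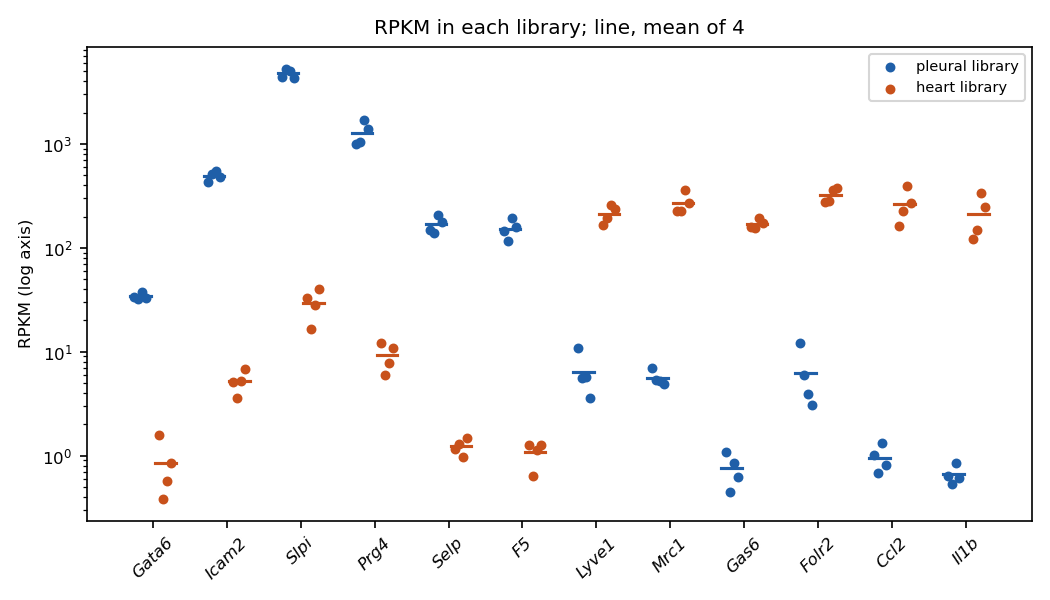
RPKM on a log axis for 12 genes, 1 point per library (blue, pleural; orange, heart) with a line at the mean of 4. The groups are separated for each of the 12 genes, from Slpi at 4345 to 5324 RPKM in pleural libraries to Il1b at 122 to 334 RPKM in heart libraries. The minimum fixed this separation for Il1b.

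Saa3, an acute phase apolipoprotein made by macrophages, and Serpinb2, the inhibitor of plasminogen activators also called PAI-2, belong to the same group. Their promoter windows, 250 bases before to 50 bases after the RefSeq start in GRCm38.p6, are shown because both hold the 6-letter core AGATAA that GATA factors bind. It was read on both strands, and capitals mark it or its reverse complement. The Saa3 window is chr7:46715627-46715926 on the minus strand and the Serpinb2 window, the first of 2 listed for the gene, is chr1:107511260-107511559 on the plus strand.
Saa3: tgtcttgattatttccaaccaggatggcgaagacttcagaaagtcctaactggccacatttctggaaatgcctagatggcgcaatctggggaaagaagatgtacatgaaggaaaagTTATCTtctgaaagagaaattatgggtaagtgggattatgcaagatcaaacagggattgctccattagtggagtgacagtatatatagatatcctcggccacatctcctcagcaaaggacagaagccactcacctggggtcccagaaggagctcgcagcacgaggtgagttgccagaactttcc
Serpinb2: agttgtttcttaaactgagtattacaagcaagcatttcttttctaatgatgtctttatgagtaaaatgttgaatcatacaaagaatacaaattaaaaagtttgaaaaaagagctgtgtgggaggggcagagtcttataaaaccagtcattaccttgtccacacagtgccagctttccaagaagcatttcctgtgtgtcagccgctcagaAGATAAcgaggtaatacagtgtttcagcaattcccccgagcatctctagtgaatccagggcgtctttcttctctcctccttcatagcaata
Counted from the start site, the core begins at base -134 in Saa3 and at base -41 in Serpinb2. Of 20 large cavity genes with a window, 5 (25%) held AGATAA, against 12.7% of the 27025 genes with a window. The share was not particular to pleural genes. It was 18.2% (2 of 11 with a window) among the 15 named largest rises and 22.2% (2 of 9) among the 15 named largest falls. No binding was measured in these data, and a match of letters describes the window only. Saa3 itself stood at 1363, 2968, 2929 and 1468 RPKM in the pleural libraries and 13, 10.9, 16.6 and 19.1 RPKM in the heart libraries, with pleural libraries 3 and 4 above 2 and 5. Serpinb2 was steadier, at 276, 248, 305 and 295 RPKM in the pleural libraries and 1.97, 1.47, 2.02 and 2.38 RPKM in the heart libraries. The log2 folds were 7.09 ± 0.32 (SE, limma adjusted p = 1.76e-13) and 6.85 ± 0.18 (SE, limma adjusted p = 1.11e-16).

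Clotting genes moved in both directions. Of 26 coagulation and fibrinolysis genes, 20 were tested, 11 were higher in pleural macrophages and 6 lower, with a median log2 fold of 1.51, and these calls were kept under all 4 scalings. Of the tested members 3 had passed only through heart libraries, and with an RPKM of 1 in all 8 libraries 2 were lower. F5, the cofactor that speeds thrombin formation, stood at 153 ± 31.3 RPKM in pleural and 1.07 ± 0.301 RPKM in heart libraries (SD, n = 4). F7, which with tissue factor starts the cascade, stood at 70.6, 73.6, 63.5 and 68.7 RPKM in the pleural libraries and 0.363, 0.19, 0.213 and 0.635 RPKM in the heart libraries. Selp, the P-selectin that tethers platelets and leukocytes, stood at 147, 139, 208 and 179 RPKM in the pleural libraries and 1.15, 1.3, 0.978 and 1.48 RPKM in the heart libraries. All 3 genes lay between 0.19 and 1.48 RPKM in every heart library, with no overlap between groups, which the minimum fixed for F7. Their log2 folds were 6.61 ± 0.19 (SE, limma adjusted p = 2.66e-16), 6.38 ± 0.18 (SE, limma adjusted p = 2.23e-16) and 6.60 ± 0.17 (SE, limma adjusted p = 1.11e-16). Gas6, a vitamin K-dependent relative of protein S that bridges dying cells to their receptors, went the opposite way, at 1.09, 0.446, 0.85 and 0.617 RPKM in the pleural libraries and 160, 156, 193 and 175 RPKM in the heart libraries. The log2 fold of Gas6 was -7.12 ± 0.32 (SE, limma adjusted p = 1.39e-13).

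Host defence genes were mostly pleural. Of 28 such genes, 14 were tested and 14 were below the minimum. Among those tested, 12 were higher in pleural macrophages and 1, Ear2, was lower, with 4 having passed only through pleural libraries. Hp, the haemoglobin-binding haptoglobin, stood at 72.6, 88, 109 and 78.6 RPKM in the pleural libraries and 0.778, 0.664, 0.587 and 0.933 RPKM in the heart libraries. Pglyrp1, a peptidoglycan recognition protein, stood at 34.1, 44.6, 51.1 and 36.1 RPKM in the pleural libraries and 0.988, 0.318, 0.451 and 0.527 RPKM in the heart libraries. Chil3, a chitinase-like protein, varied more among pleural libraries, at 9.83, 58.3, 25.4 and 20.6 RPKM in the pleural libraries and 0.333, 0.381, 0.151 and 0.216 RPKM in the heart libraries. Each of the 3 was below 1 RPKM in every heart library, so the minimum fixed that they were higher in pleural libraries. Log2 folds were 6.13 ± 0.16 (SE, limma adjusted p = 7.34e-17) for Hp, 5.31 ± 0.21 (SE, limma adjusted p = 2.64e-14) for Pglyrp1 and 4.97 ± 0.44 (SE, limma adjusted p = 7.48e-09) for Chil3. Hp, Chil3 and Fn1 are also markers of monocytes. Of 11 tested monocyte markers 7 were higher in pleural libraries (3 with an RPKM of 1 in all 8 libraries) and 4 lower, the lower ones including Nr4a1 and Ccr2, and the part of monocytes in these values was not tested.

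Genes of resident cardiac macrophages went the other way. Of 22 such genes, all were tested, 17 were lower in pleural macrophages and 4 were higher, with a median log2 fold of -3.17. Hpgd, which breaks down prostaglandins, stood at 1.84, 1.18, 1.47 and 1.26 RPKM in the pleural libraries and 149, 145, 256 and 259 RPKM in the heart libraries. Folr2, a folate receptor, stood at 12, 5.9, 3.9 and 3.09 RPKM in the pleural libraries and 274, 280, 357 and 378 RPKM in the heart libraries. Cd163, the receptor that clears haemoglobin bound to haptoglobin, stood at 6.01, 4.08, 4.36 and 4.7 RPKM in the pleural libraries and 151, 185, 235 and 188 RPKM in the heart libraries. Groups did not overlap for these 3 genes, and pleural library 2 was the highest of its group for Folr2. Log2 folds were -6.66 ± 0.20 (SE, limma adjusted p = 4.85e-16) for Hpgd, -5.74 ± 0.55 (SE, limma adjusted p = 2.43e-08) for Folr2 and -5.16 ± 0.23 (SE, limma adjusted p = 1.22e-13) for Cd163. The 4 members higher in pleural libraries were Timd4, Ltc4s, Pf4 and Cd36, the last of which lost its call under another scaling. Timd4, a receptor for phosphatidylserine on dying cells, stood at 132, 118, 210 and 133 RPKM in the pleural libraries and 37.5, 39.1, 52.6 and 44.1 RPKM in the heart libraries, a log2 fold of 1.74 ± 0.18 (SE, limma adjusted p = 1.05e-07). Timd4 stands in both macrophage lists.

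Small cavity macrophage and dendritic-like genes were also higher in the heart. Of 13 such genes 11 were tested, 8 were lower in pleural macrophages and 1, Plac8, was higher. The median log2 fold of the list was -2.86, and its largest fall was Folr2, which also stands in the resident cardiac list above. Mgl2, a galactose-binding lectin, stood at 10, 12.8, 12.2 and 12.2 RPKM in the pleural libraries and 191, 217, 263 and 299 RPKM in the heart libraries. Fcrls, an Fc receptor-like scavenger, stood at 6.55, 6.87, 8 and 9.75 RPKM in the pleural libraries and 149, 158, 204 and 218 RPKM in the heart libraries, and Itgax, the CD11c integrin chain, at 0.132, 0.116, 0.126 and 0.156 RPKM in the pleural libraries and 4.08, 4.06, 3.53 and 6.04 RPKM in the heart libraries. Pleural values of Mgl2, Fcrls and Itgax were close together and below every heart value, which the minimum fixed for Itgax. Log2 folds were -4.29 ± 0.19 (SE, limma adjusted p = 1.85e-13), -4.46 ± 0.28 (SE, limma adjusted p = 2.97e-11) and -2.94 ± 0.15 (SE, limma adjusted p = 2.13e-12). Ccr2, the receptor that draws monocytes into tissue, stood at 11.5, 13.6, 19.3 and 18.8 RPKM in the pleural libraries and 25.3, 25.3, 40.4 and 37.9 RPKM in the heart libraries, and was lower in pleural macrophages (limma adjusted p = 0.000556). In bulk libraries like these, fewer cells of a type and less RNA per cell cannot be told apart.

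**Figure D3:**
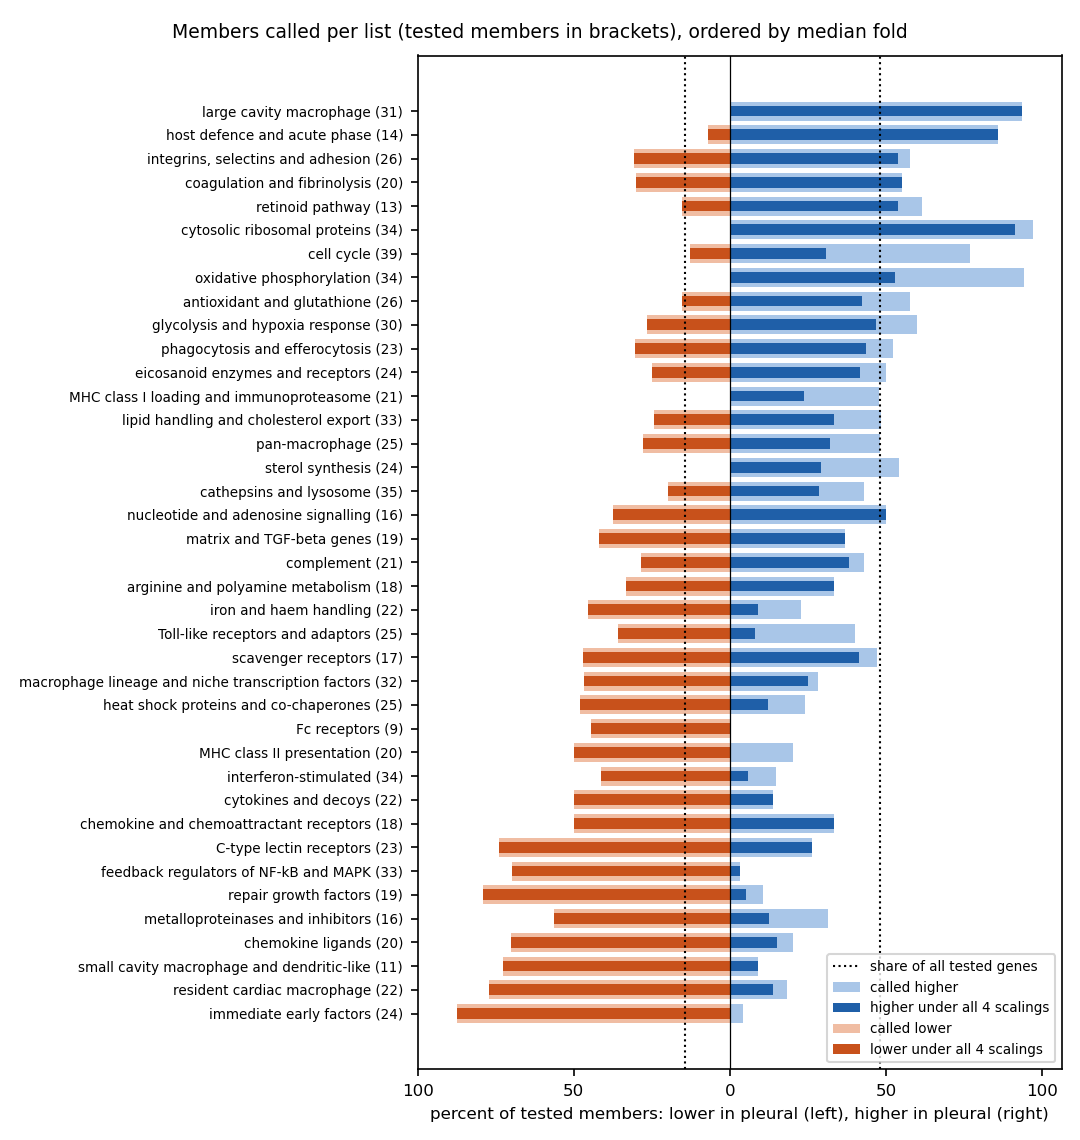
Percent of tested members called lower (left, orange) and higher (right, blue) in pleural macrophages for each list with 5 or more tested members, ordered by median fold; pale bars give calls on deposited RPKM, dark bars calls kept under all 4 scalings, and dotted lines the shares of all tested genes, 14.3% lower and 47.9% higher. Large cavity genes stand at the top with 29 of 31 higher and immediate early factors at the bottom with 21 of 24 lower. Tested members of these lists include 5 that passed the minimum only through pleural and 4 only through heart libraries, respectively.

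Transcription factors of macrophage identity split between the groups. Of 32 tested, 9 were higher and 15 lower in pleural macrophages, with a median log2 fold of -0.28. Besides Gata6, the higher ones included Nfe2, a bZIP factor best known from megakaryocytes, at 34.1, 38.2, 41.5 and 37.4 RPKM in the pleural libraries and 0.482, 0.31, 0.275 and 0.413 RPKM in the heart libraries. Bhlhe40, a repressor used by large cavity macrophages, stood at 38.8, 39.9, 45.7 and 41.8 RPKM in the pleural libraries and 3.56, 2.47, 2.68 and 1.66 RPKM in the heart libraries. Spic, the factor of haem-recycling macrophages, was higher in the heart, at 0.3, 0.259, 0.453 and 0.226 RPKM in the pleural libraries and 9.87, 7.87, 17.5 and 17.4 RPKM in the heart libraries. Groups did not overlap for any of these factors, which the minimum fixed for Nfe2 and Spic. Of the tested members 2 passed only through pleural libraries and 2 only through heart libraries. The log2 folds were 5.46 ± 0.16 (SE, limma adjusted p = 2.98e-16) for Nfe2, 3.80 ± 0.20 (SE, limma adjusted p = 1.9e-12) for Bhlhe40 and -4.01 ± 0.21 (SE, limma adjusted p = 1.68e-12) for Spic. Klf4 was lower in pleural macrophages too, with a log2 fold of -3.62 ± 0.23 (SE, limma adjusted p = 3.43e-11).

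Retinoid pathway genes were read for their tie to Gata6. Of 24 such genes 13 were tested, 8 were higher in pleural macrophages and 2 lower, with a median log2 fold of 1.14. Rarb, a retinoic acid receptor whose own gene responds to the ligand, stood at 9.1, 10.4, 9.59 and 9.27 RPKM in the pleural libraries and 0.533, 0.597, 0.227 and 0.39 RPKM in the heart libraries. Aldh1a2, which makes retinoic acid, stood at 11.4, 18.7, 15.2 and 13.6 RPKM in the pleural libraries and 2.49, 1.66, 1.07 and 3 RPKM in the heart libraries. Cyp26a1, which breaks retinoic acid down, was uneven among pleural libraries, at 2.01, 4.79, 11.3 and 1.78 RPKM in the pleural libraries and 0.182, 0.228, 0.222 and 0.101 RPKM in the heart libraries. Every pleural library lay above every heart library in the 3 genes, which the minimum fixed for Rarb and Cyp26a1. Of the tested members 2 passed only through pleural libraries and 1 only through heart libraries. Log2 folds were 3.44 ± 0.16 (SE, limma adjusted p = 3.36e-13) for Rarb, 2.62 ± 0.26 (SE, limma adjusted p = 3.32e-08) for Aldh1a2 and 2.67 ± 0.43 (SE, limma adjusted p = 2.97e-05) for Cyp26a1. Aldh1a1, the related enzyme, was higher in the heart, with a log2 fold of -2.26 ± 0.23 (SE, limma adjusted p = 4.85e-08).

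Matrix and adhesion genes included some of the widest differences, in both directions. Of 29 matrix and TGF-beta genes 19 were tested, 7 were higher in pleural macrophages and 8 lower, and 3 were lower with an RPKM of 1 in all 8 libraries. Fn1, fibronectin, stood at 1732, 1654, 2640 and 2234 RPKM in the pleural libraries and 20.6, 12.9, 14.6 and 21.7 RPKM in the heart libraries. Ltbp1, which holds latent TGF-beta in the matrix, stood at 116, 89.6, 133 and 108 RPKM in the pleural libraries and 1.94, 0.934, 0.97 and 1.01 RPKM in the heart libraries, and its ligand gene Tgfb2 at 39.1, 25.8, 55 and 35.8 RPKM in the pleural libraries and 0.633, 0.458, 0.531 and 0.399 RPKM in the heart libraries. All 3 were far higher in each pleural library, although Tgfb2 passed the minimum only through pleural libraries. Their log2 folds were 6.85 ± 0.22 (SE, limma adjusted p = 7.56e-16), 6.06 ± 0.19 (SE, limma adjusted p = 7.03e-16) and 5.25 ± 0.21 (SE, limma adjusted p = 2.39e-14). The lower members included Dcn, the proteoglycan decorin, at 0.163 to 0.273 RPKM in pleural and 34.7 to 146 RPKM in heart libraries, a direction the minimum fixed. Dcn and Lum are also fibroblast markers, and that whole marker list was higher in the heart, as given further on. Of 35 adhesion genes 26 were tested, 15 higher and 8 lower in pleural macrophages, with a median log2 fold of 1.53, and 4 were lower with an RPKM of 1 in all 8 libraries. Cd24a, a glycosylated surface antigen, stood at 120 ± 21.2 RPKM in pleural and 2.35 ± 0.514 RPKM in heart libraries (SD, n = 4), and Itgb5, an integrin chain for vitronectin, ran the other way at 0.563 ± 0.107 and 68.5 ± 10.6 RPKM. The log2 folds were 5.40 ± 0.20 (SE, limma adjusted p = 5.34e-15) and -6.01 ± 0.16 (SE, limma adjusted p = 1.11e-16). The minimum fixed the direction of Itgb5.

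Receptors for uptake moved in both directions. Among scavenger receptors 17 of 23 were tested, 8 higher and 8 lower in pleural macrophages. Marco, a class A receptor for bacteria and particles, stood at 76.8, 77.4, 76.8 and 64 RPKM in the pleural libraries and 0.997, 1.14, 1.2 and 0.838 RPKM in the heart libraries. Stab1, a receptor for modified lipoproteins and matrix fragments, stood at 3.43, 4.2, 4.39 and 3.44 RPKM in the pleural libraries and 154, 176, 180 and 166 RPKM in the heart libraries. The groups were fully apart in both, in opposite directions, with log2 folds of 5.59 ± 0.19 (SE, limma adjusted p = 1.91e-15) and -5.28 ± 0.18 (SE, limma adjusted p = 1.71e-15). C-type lectins and galectins were mostly lower in pleural macrophages, with 6 higher and 17 lower of 23 tested and a median log2 fold of -1.60. Clec4d, a receptor for microbial glycolipids, stood at 265, 267, 292 and 261 RPKM in the pleural libraries and 3.41, 7.8, 7.86 and 11.5 RPKM in the heart libraries and was the exception of largest size, at a log2 fold of 5.17 ± 0.26 (SE, limma adjusted p = 9.65e-13). Clec12a, an inhibitory lectin that senses uric acid crystals, stood at 1.03, 0.972, 1.44 and 0.899 RPKM in the pleural libraries and 41.2, 36.9, 63.7 and 59 RPKM in the heart libraries, a log2 fold of -4.97 ± 0.20 (SE, limma adjusted p = 4.16e-14). Of 23 efferocytosis genes tested, 12 were higher, a share close to that of all genes, and 7 lower. Besides Gas6, its receptor gene Axl was lower in pleural macrophages, at 3.04 to 5.97 RPKM against 40.3 to 56.5 RPKM in the heart (log2 fold -3.42 ± 0.22 SE, limma adjusted p = 5.05e-11).

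Complement genes moved in both directions, and Cfp and Cfb of the alternative pathway were higher in pleural macrophages. Of 26 complement genes 21 were tested, 9 were higher and 6 lower, with a median log2 fold of 0.27. Cfp, the stabilizing protein properdin, stood at 1593, 1576, 1821 and 1421 RPKM in the pleural libraries and 130, 165, 134 and 183 RPKM in the heart libraries. Cfb, factor B of the same pathway, stood at 72.3, 154, 113 and 76.5 RPKM in the pleural libraries and 5, 12, 4.45 and 4.48 RPKM in the heart libraries, and C4b of the classical pathway at 475, 602, 791 and 502 RPKM in the pleural libraries and 39.4, 73.9, 39.6 and 45.7 RPKM in the heart libraries. Every pleural library exceeded every heart library for these 3 genes. Log2 folds were 3.39 ± 0.21 (SE, limma adjusted p = 3.03e-11) for Cfp, 3.95 ± 0.33 (SE, limma adjusted p = 3.52e-09) for Cfb and 3.58 ± 0.23 (SE, limma adjusted p = 3.63e-11) for C4b. Serping1, the C1 inhibitor, was lower in pleural macrophages at a log2 fold of -4.23 ± 0.27 (SE, limma adjusted p = 4.47e-11), and heart library 2, also highest in fibroblast genes, held 25.8 RPKM against 7.35 to 7.93 RPKM in the other heart libraries. C1qa, which encodes a C1q chain, was not called on deposited values, at 1790 to 2243 RPKM in pleural and 1555 to 2621 RPKM in heart libraries (limma adjusted p = 0.897), but was lower in pleural macrophages at an equal RPKM total, with a log2 fold of -0.49 (limma adjusted p = 0.000589). At an equal RPKM total the list held 8 higher and 10 lower members, and 2 were lower with an RPKM of 1 in all 8 libraries.

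The steepest falls were in immediate early genes, the transcription factors and phosphatases that cells switch on within minutes of a stimulus. Of 27 such genes 24 were tested, 21 were lower in pleural macrophages, against 14.3% of all genes, and 1, Myc, was higher. The minimum had been passed only through heart libraries by 4 of the tested members. The median log2 fold was -3.33, and the same 21 were lower under all 4 scalings while the Myc call was not kept. Promoter windows of 4 inducible genes are shown because they hold the NF-kB consensus, the decamer bound by NF-kB, which begins with G bases and ends with C bases. Capitals mark the match, searched on both strands, in RefSeq windows of GRCm38.p6. The windows are chr12:85473640-85473939 (plus strand) for Fos, chr7:19309996-19310295 (minus strand) for Fosb, chr15:101266596-101266895 (plus strand) for Nr4a1 and chr12:55492598-55492897 (minus strand) for Nfkbia.
Fos: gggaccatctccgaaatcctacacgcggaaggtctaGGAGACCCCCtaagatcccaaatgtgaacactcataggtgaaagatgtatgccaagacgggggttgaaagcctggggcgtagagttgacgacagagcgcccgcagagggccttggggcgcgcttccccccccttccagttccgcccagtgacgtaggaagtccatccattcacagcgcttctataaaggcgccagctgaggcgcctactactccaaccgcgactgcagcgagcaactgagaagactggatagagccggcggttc
Fosb: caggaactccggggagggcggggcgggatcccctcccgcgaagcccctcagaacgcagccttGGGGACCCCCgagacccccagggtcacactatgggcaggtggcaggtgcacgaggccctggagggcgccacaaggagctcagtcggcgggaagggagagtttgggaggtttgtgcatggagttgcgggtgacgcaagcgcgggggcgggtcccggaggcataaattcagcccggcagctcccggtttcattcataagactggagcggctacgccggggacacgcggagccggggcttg
Nr4a1: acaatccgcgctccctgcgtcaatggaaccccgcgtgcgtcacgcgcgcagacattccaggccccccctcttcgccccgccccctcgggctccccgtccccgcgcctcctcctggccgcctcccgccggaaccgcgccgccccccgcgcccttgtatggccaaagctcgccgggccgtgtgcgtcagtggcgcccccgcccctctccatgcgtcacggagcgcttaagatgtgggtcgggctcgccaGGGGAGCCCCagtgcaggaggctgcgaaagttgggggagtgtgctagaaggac
Nfkbia: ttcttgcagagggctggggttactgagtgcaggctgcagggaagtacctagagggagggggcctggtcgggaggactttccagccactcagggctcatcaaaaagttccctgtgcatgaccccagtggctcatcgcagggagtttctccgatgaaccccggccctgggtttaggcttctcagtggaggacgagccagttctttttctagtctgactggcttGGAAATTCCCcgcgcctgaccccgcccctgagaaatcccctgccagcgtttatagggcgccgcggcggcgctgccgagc
Counted from the start site, the match begins at base -214 in Fos, -188 in Fosb, -3 in Nr4a1 and -29 in Nfkbia. The consensus was present in 7 of 22 immediate early genes with a window (31.8%), in 9 of 29 feedback regulators (31%) and in 5 of 18 chemokine genes (27.8%). Among all 27025 genes with a window the share was 5.14%, and among 20 large cavity genes with a window none held it. The cyclic AMP response element TGACGTCA was present in 3 of the 22 immediate early windows (13.6%) and in 2.03% of all, and the serum response element consensus in 3 (13.6%) and 1.81%. The AP-1 site TGACTCA was in none of the 22 windows and in 5.95% of all. These shares describe letters in the windows, and factor binding was not measured.

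Fosb, which pairs with Jun proteins to form AP-1, stood at 1.14, 0.872, 0.967 and 0.726 RPKM in the pleural libraries and 369, 429, 589 and 245 RPKM in the heart libraries. Egr1, a zinc finger factor, stood at 2.16, 1.63, 5.87 and 2.11 RPKM in the pleural libraries and 648, 728, 1004 and 496 RPKM in the heart libraries. Fos stood at 14.1, 12.6, 13 and 12.3 RPKM in the pleural libraries and 1543, 1585, 2465 and 1826 RPKM in the heart libraries. Each heart value of these 3 genes was more than an order of magnitude above each pleural value, with pleural library 4 highest of its group for Egr1. Log2 folds were -8.10 ± 0.19 (SE, limma adjusted p = 3.47e-17) for Fosb, -7.80 ± 0.32 (SE, limma adjusted p = 4.27e-14) for Egr1 and -7.08 ± 0.25 (SE, limma adjusted p = 5.04e-15) for Fos. Jun, the AP-1 partner, stood at 13.6, 9.52, 9.25 and 10.6 RPKM in the pleural libraries and 894, 853, 1155 and 831 RPKM in the heart libraries, and Nr4a1, an orphan nuclear receptor, at 4.08, 3.03, 6.79 and 3.99 RPKM in the pleural libraries and 173, 166, 289 and 155 RPKM in the heart libraries. Egr2 was lower as well, at 0.428 to 0.545 RPKM in pleural and 59.2 to 100 RPKM in heart libraries, which the minimum fixed. For Jun, Nr4a1 and Egr2 the log2 folds were -6.38 ± 0.23 (SE, limma adjusted p = 5.34e-15), -5.31 ± 0.22 (SE, limma adjusted p = 6.57e-14) and -6.14 ± 0.19 (SE, limma adjusted p = 4.85e-16). Summed over the 27 genes, RPKM was 1119 to 1219 in pleural libraries and 9599 to 15001 in heart libraries. Heart library 4 held the highest value of its group for 23 of the 24 tested members, while it was highest for 36% of all tested genes. Without heart library 4, 21 immediate early genes were again lower in pleural macrophages.

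Genes that damp NF-kB and MAP kinase signalling were lower in pleural macrophages too. Of 35 such genes 33 were tested, 23 were lower in pleural macrophages and 1, Gadd45a, was higher. The list had a median log2 fold of -1.91. At an equal RPKM total 30 were lower, and with an RPKM of 1 in all 8 libraries 15 were. Gadd45b, a stress-induced regulator of MAP kinases, stood at 0.775, 1.09, 1.1 and 0.744 RPKM in the pleural libraries and 118, 94.9, 165 and 110 RPKM in the heart libraries. Zfp36, which destabilizes cytokine mRNA, stood at 65.6, 62.2, 66.7 and 73.9 RPKM in the pleural libraries and 952, 1018, 1788 and 1046 RPKM in the heart libraries. Tnfaip3, the ubiquitin-editing enzyme A20, stood at 1.78, 2.08, 2.16 and 2.3 RPKM in the pleural libraries and 34.3, 24.5, 77.6 and 25.5 RPKM in the heart libraries. No group overlap was seen, and heart library 4 was the highest library for each of the 3. Log2 folds were -6.40 ± 0.21 (SE, limma adjusted p = 8.17e-16), -4.11 ± 0.19 (SE, limma adjusted p = 3.14e-13) and -3.82 ± 0.26 (SE, limma adjusted p = 9.91e-11). Nfkbia, the NF-kB inhibitor whose window is shown above, stood at 81.5, 92.1, 99.4 and 88.7 RPKM in the pleural libraries and 308, 258, 493 and 339 RPKM in the heart libraries, a log2 fold of -1.91 ± 0.21 (SE, limma adjusted p = 2.45e-07).

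Heat shock genes moved in both directions. Of 25 tested, 12 were lower and 6 higher in pleural macrophages, with a median log2 fold of -0.41. Hspa1a, the inducible HSP70, stood at 21, 17.3, 11.9 and 32.4 RPKM in the pleural libraries and 1930, 1614, 1901 and 1892 RPKM in the heart libraries. Hspa1a and Hspa1b are near-identical, so the split of reads between them is uncertain, and Hspa1b stood at 13.2 to 44.5 RPKM in pleural and 1614 to 1940 RPKM in heart libraries. Dnajb1, its inducible co-chaperone, stood at 11.6, 13.7, 10.4 and 11.1 RPKM in the pleural libraries and 165, 148, 197 and 200 RPKM in the heart libraries. Pleural and heart libraries were fully apart in all 3. Log2 folds were -6.52 ± 0.35 (SE, limma adjusted p = 2.57e-12) for Hspa1a, -5.83 ± 0.47 (SE, limma adjusted p = 1.63e-09) for Hspa1b and -3.87 ± 0.21 (SE, limma adjusted p = 3.35e-12) for Dnajb1. The 6 higher members were Hspa9, Hsp90b1, Dnajb11, Hsf2, Ahsa1 and Stip1. Calls of Hsp90b1 and Dnajb11, chaperones of the endoplasmic reticulum, and of Hsf2 were kept under all 4 scalings. The heat shock element consensus was found on either strand in 4 of 19 windows of the list (21.1%) and in 0.662% of all windows. Pleural cells came from lavage and cardiac cells from solid tissue, so tissue of origin and cell handling cannot be told apart. This limit holds for every pleural against heart difference given here. It covers the early, feedback and heat shock genes above and the chemokine, cytokine and growth factor genes below.

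**Figure D4:**
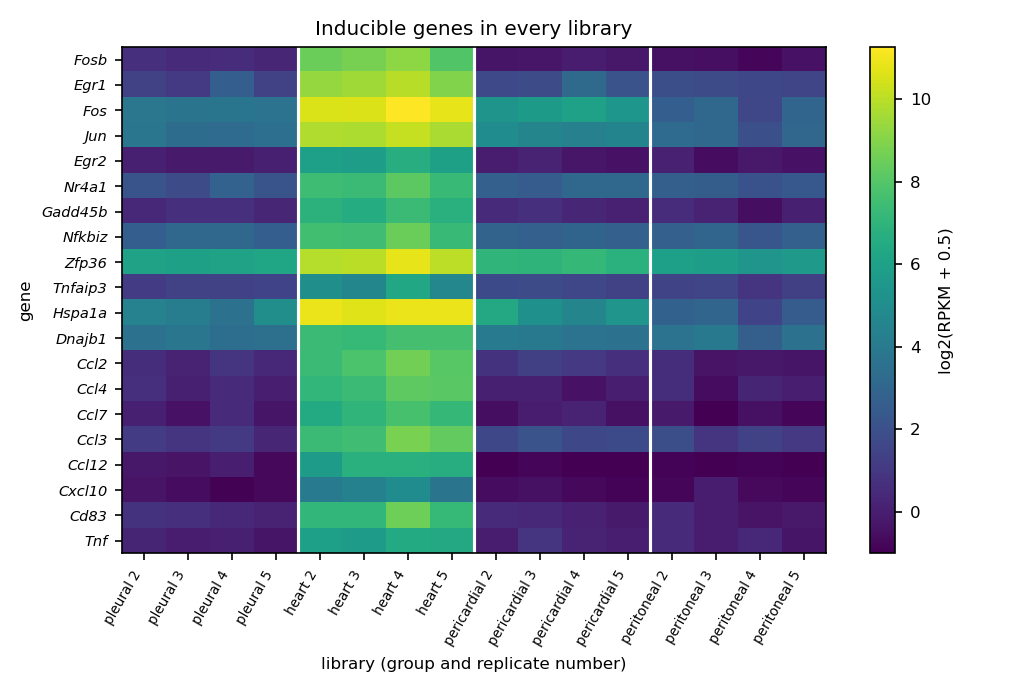
Log2(RPKM + 0.5) as colour for 20 inducible genes (rows) in each of the 16 libraries (columns, by group and replicate number), from dark for low to yellow for high. All 4 heart libraries are brighter than all 4 pleural libraries in every row, as for Fos at 1543 to 2465 against 12.3 to 14.1 RPKM. The minimum fixed this for rows such as Egr2 and Tnf. The pericardial and peritoneal columns lie nearer to the pleural ones.

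Most tested chemokine ligand genes were lower in pleural macrophages. Of 26 chemokine ligand genes 20 were tested, 14 were lower in pleural macrophages and 4 were higher, with a median log2 fold of -2.77, and 7 had passed only through heart libraries. With an RPKM of 1 in all 8 libraries 4 were lower. Ccl2, which recruits monocytes through Ccr2, stood at 1.02, 0.676, 1.31 and 0.815 RPKM in the pleural libraries and 163, 225, 398 and 270 RPKM in the heart libraries. Ccl3, an inflammatory attractant of leukocytes, stood at 1.8, 1.3, 1.6 and 0.759 RPKM in the pleural libraries and 163, 181, 452 and 314 RPKM in the heart libraries. Ccl4, a close relative of Ccl3, stood at 1.1, 0.562, 0.869 and 0.519 RPKM in the pleural libraries and 138, 166, 298 and 281 RPKM in the heart libraries. Every heart value lay far above every pleural value, and heart library 4 was highest for all 3. Log2 folds were -7.45 ± 0.24 (SE, limma adjusted p = 1.21e-15), -7.13 ± 0.29 (SE, limma adjusted p = 2.8e-14) and -7.40 ± 0.25 (SE, limma adjusted p = 2.46e-15). Ccl7 and Ccl12, further monocyte attractants, had log2 folds of -7.14 ± 0.25 (SE, limma adjusted p = 3.05e-15) and -6.83 ± 0.19 (SE, limma adjusted p = 1.95e-16). The 4 higher members were Ccl6, Cxcl12, Cxcl13 and Pf4, and the Ccl6 call was not kept under all 4 scalings. Cxcl13, which draws B cells, stood at 213, 260, 554 and 288 RPKM in the pleural libraries and 15.6, 22.9, 30.2 and 43.1 RPKM in the heart libraries, a log2 fold of 3.53 ± 0.31 (SE, limma adjusted p = 8.15e-09). Pf4, the chemokine called platelet factor, stood at 2898, 2115, 2466 and 2051 RPKM in the pleural libraries and 579, 557, 799 and 1060 RPKM in the heart libraries, a log2 fold of 1.71 ± 0.26 (SE, limma adjusted p = 1.62e-05).

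Receptors for chemoattractants moved in both directions, 6 higher and 9 lower of 18 tested. Cx3cr1, the fractalkine receptor, stood at 2.2, 2.22, 1.98 and 2.36 RPKM in the pleural libraries and 69.1, 61.7, 107 and 86.9 RPKM in the heart libraries. Cxcr4, the receptor for Cxcl12, stood at 3.94, 4.04, 3.64 and 3.93 RPKM in the pleural libraries and 77.3, 77.4, 154 and 132 RPKM in the heart libraries. Both were higher in every heart library, with log2 folds of -4.89 ± 0.29 (SE, limma adjusted p = 1.47e-11) and -4.59 ± 0.22 (SE, limma adjusted p = 4.49e-13). Fpr1, the receptor for bacterial formyl peptides, was higher in pleural macrophages, at 11.2 to 19.7 RPKM against 1.85 to 3.72 RPKM (log2 fold 2.42 ± 0.24 SE, limma adjusted p = 4.6e-08).

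Cytokine genes were 3 higher and 11 lower of 22 tested, against 14.3% of all genes lower, and 8 of the 30 in the list were below the minimum. Of those tested, 5 passed only through heart libraries. The lower count was 18 at an equal RPKM total and 4 with an RPKM of 1 in all 8 libraries. Il1b, the fever-inducing interleukin, stood at 0.634, 0.534, 0.851 and 0.614 RPKM in the pleural libraries and 122, 150, 334 and 248 RPKM in the heart libraries. Tnf stood at 0.709, 0.475, 0.548 and 0.311 RPKM in the pleural libraries and 59.9, 54.1, 89.7 and 83.4 RPKM in the heart libraries, and Il10, which restrains inflammation, at 0.218, 0.234, 0.0924 and 0.24 RPKM in the pleural libraries and 6.93, 9.35, 11.4 and 10.1 RPKM in the heart libraries. Heart values of the 3 genes were above every pleural value, which the minimum fixed for all 3. Log2 folds were -7.42 ± 0.24 (SE, limma adjusted p = 8.17e-16), -6.14 ± 0.22 (SE, limma adjusted p = 5.02e-15) and -3.82 ± 0.17 (SE, limma adjusted p = 1.26e-13). Il6 was not called, at 1.98 to 2.27 RPKM in pleural and 1.91 to 6.3 RPKM in heart libraries (limma adjusted p = 0.162), and was lower in pleural macrophages at an equal RPKM total, with a log2 fold of -0.84 (limma adjusted p = 0.0131).

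Repair growth factor and matrix protease genes included several that reached the minimum in heart libraries alone. Of 30 repair growth factor genes 19 were tested, 15 were lower and 2, Igf2r and Grn, were higher, with a median log2 fold of -1.97, and the Grn call was not kept under all 4 scalings. Of those tested, 5 passed only through heart libraries, and with an RPKM of 1 in all 8 libraries 7 were lower. Cyr61, a matricellular protein, stood at 0.343, 0.355, 0.223 and 0.267 RPKM in the pleural libraries and 94.2, 70.7, 99.5 and 118 RPKM in the heart libraries, and Pdgfb, a mitogen for vessel wall cells, at 1.22, 1.14, 0.744 and 1.28 RPKM in the pleural libraries and 17.7, 20.7, 24.5 and 23.5 RPKM in the heart libraries. The groups were apart for both, which the minimum fixed for Cyr61 but not for Pdgfb. Their log2 folds were -6.89 ± 0.15 (SE, limma adjusted p = 1.95e-17) and -3.80 ± 0.18 (SE, limma adjusted p = 5.46e-13). Of 16 metalloproteinase and inhibitor genes tested, 9 were lower and 5 higher, but 8 had passed only through heart libraries, and 1 was lower with an RPKM of 1 in all 8 libraries. At an equal RPKM total 2 were higher and 11 lower. Mmp13, a collagenase, stood at 0.13, 0.139, 0.181 and 0.0747 RPKM in the pleural libraries and 28.4, 28.4, 54 and 37.4 RPKM in the heart libraries, a log2 fold of -5.85 ± 0.17 (SE, limma adjusted p = 2.42e-16). The minimum fixed the direction of Mmp13. Adam8, a membrane protease of leukocytes, was among the higher ones, at 22.9 to 26.5 RPKM against 1.78 to 2.51 RPKM in the heart (log2 fold 3.22 ± 0.16 SE, limma adjusted p = 6.03e-13).

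Class II antigen presentation genes were higher in heart macrophages. Of 20 class II genes tested, 10 were lower in pleural macrophages and 4 higher, and under all 4 scalings the counts were 10 and 0. Cd74, the invariant chain, stood at 284, 860, 273 and 289 RPKM in the pleural libraries and 2948, 4332, 4593 and 6681 RPKM in the heart libraries. H2-Aa, a class II alpha chain, stood at 103, 382, 123 and 123 RPKM in the pleural libraries and 1433, 2101, 2267 and 3538 RPKM in the heart libraries, and H2-Ab1, its beta chain, at 121, 458, 138 and 127 RPKM in the pleural libraries and 1396, 2046, 1939 and 3244 RPKM in the heart libraries. Pleural library 3 stood above the other pleural libraries in all 3 genes but below every heart library, and without that library the class II list again held 10 lower and 4 higher members. Log2 folds were -3.57 ± 0.49 (SE, limma adjusted p = 3.91e-06), -3.83 ± 0.51 (SE, limma adjusted p = 2.73e-06) and -3.54 ± 0.52 (SE, limma adjusted p = 8.75e-06). Cd83, which keeps class II molecules at the surface, stood at 1.24, 1.05, 0.775 and 0.64 RPKM in the pleural libraries and 139, 139, 376 and 147 RPKM in the heart libraries, a log2 fold of -7.01 ± 0.26 (SE, limma adjusted p = 8.74e-15). Dendritic cell markers, which overlap with class II function, summed to 30.4 to 33.9 RPKM in pleural and 53.2 to 65.5 RPKM in heart libraries, with 3 of 6 tested members lower in pleural libraries, and their part in the class II values was not tested.

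Of 21 class I loading and immunoproteasome genes, 10 were higher in pleural macrophages and 11 were not called, with a median log2 fold of 0.48. The share higher was close to the 47.9% of all genes. Under all 4 scalings 5 of the 10 calls were kept, and at an equal RPKM total 3 members were lower. H2-D1, a classical class I heavy chain, stood at 1741, 2584, 2131 and 1666 RPKM in the pleural libraries and 629, 912, 754 and 937 RPKM in the heart libraries, a log2 fold of 1.32 ± 0.25 (SE, limma adjusted p = 0.000137). H2-K1, the other classical heavy chain, stood at 740, 1436, 887 and 726 RPKM in the pleural libraries and 341, 553, 409 and 517 RPKM in the heart libraries, a log2 fold of 1.02 ± 0.29 (SE, limma adjusted p = 0.00539) that was not kept under all 4 scalings. Interferon-stimulated genes were 5 higher and 14 lower of 34 tested, with a median log2 fold of -0.51. At an equal RPKM total 2 were higher and 23 lower, and with an RPKM of 1 in all 8 libraries 8 were lower. Cxcl10 and Ifit3, both induced by interferons, had log2 folds of -4.93 ± 0.23 (SE, limma adjusted p = 2.53e-13) and -3.41 ± 0.32 (SE, limma adjusted p = 2.31e-08). The summed RPKM of the interferon list was 739 in pleural library 3 and 312 to 356 in the other pleural libraries, so pleural library 3 lay above the heart range of 399 to 620 and the others below it. That library was the highest of its group for 32 of 34 interferon-stimulated and 20 of 21 class I genes, against 20.5% of all tested genes. Without it, 3 interferon-stimulated genes were higher and 18 lower, and 9 class I genes were higher and 2 lower, in pleural macrophages.

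Sensors of microbes moved in both directions. Of 25 Toll-like receptor genes and adaptors tested, 10 were higher and 9 lower, and 2 and 9 under all 4 scalings, and at an equal RPKM total 14 were lower. Tlr2, which senses lipopeptides, stood at 13.6, 15.3, 13.7 and 12.3 RPKM in the pleural libraries and 41.9, 41.8, 69.7 and 50.5 RPKM in the heart libraries. Tlr9, which senses DNA with unmethylated CpG sites, stood at 0.547, 0.132, 0.296 and 0.247 RPKM in the pleural libraries and 5.21, 6.96, 7.3 and 5.02 RPKM in the heart libraries. Lbp, which hands lipopolysaccharide to its receptor, was higher in pleural macrophages, at 20.5, 27.1, 36.4 and 28.2 RPKM in the pleural libraries and 1.9, 0.851, 0.721 and 1.12 RPKM in the heart libraries. No overlap was present in these 3 genes, and Tlr9 passed the minimum only through heart libraries. Log2 folds were -1.83 ± 0.19 (SE, limma adjusted p = 1.13e-07), -3.05 ± 0.22 (SE, limma adjusted p = 3.65e-10) and 4.14 ± 0.21 (SE, limma adjusted p = 1.18e-12). Of 9 Fc receptor genes tested, 4 were lower in pleural macrophages and 5 were not called, while 7 were lower at an equal RPKM total and after quantile normalization. Fcgr1, the high-affinity IgG receptor, stood at 5.49, 15.7, 5.35 and 5.76 RPKM in the pleural libraries and 29.1, 42.7, 38.6 and 46.6 RPKM in the heart libraries, with pleural library 3 above its group, and had a log2 fold of -2.34 ± 0.33 (SE, limma adjusted p = 4.73e-06).

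Eicosanoid genes, which make and sense lipid mediators, differed enzyme by enzyme. Of 24 eicosanoid genes tested, 12 were higher, a share close to that of all genes, and 6 lower in pleural macrophages, with a median log2 fold of 0.50. Ptgis, prostacyclin synthase, stood at 217, 264, 288 and 218 RPKM in the pleural libraries and 8.41, 1.8, 2.52 and 2.8 RPKM in the heart libraries. Hpgds, which makes prostaglandin D, stood at 1.45, 1.09, 0.712 and 1.27 RPKM in the pleural libraries and 20.7, 18.2, 35.6 and 26.4 RPKM in the heart libraries. Heart library 2 was the highest heart library for Ptgis and still far below the pleural group, and Hpgds ran the opposite way without overlap. The log2 folds were 6.02 ± 0.30 (SE, limma adjusted p = 8.03e-13) and -3.95 ± 0.34 (SE, limma adjusted p = 4.36e-09). In lipid handling, 16 of 33 tested genes were higher, close to the 47.9% of all genes, and 8 lower, and these counts were 11 and 15 at an equal RPKM total. Fabp4, a fatty acid carrier of macrophages, fat cells and endothelium, stood at 502, 556, 581 and 500 RPKM in the pleural libraries and 15.2, 11.6, 7.21 and 16.6 RPKM in the heart libraries, and Ch25h, which makes 25-hydroxycholesterol, at 0.164, 0.0484, 0.0893 and 0.0211 RPKM in the pleural libraries and 11.8, 13.4, 16.9 and 16.7 RPKM in the heart libraries. Of the lipid genes tested, 1 passed only through pleural libraries and 2 only through heart libraries. Fabp4 was far higher in the cavity and Ch25h in the heart, which the minimum fixed for Ch25h. Their log2 folds were 5.41 ± 0.23 (SE, limma adjusted p = 6.68e-14) and -4.70 ± 0.15 (SE, limma adjusted p = 6.49e-16).

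Iron and haem genes differed widely for the iron exporter and the haem-splitting enzyme. Of 22 tested, 10 were lower and 5 higher, 2 of the latter under all 4 scalings, and at an equal RPKM total 16 were lower and 2 higher. Slc40a1, the iron exporter ferroportin, stood at 0.0749, 0.0129, 0.0625 and 0.0338 RPKM in the pleural libraries and 15.9, 14.6, 21.9 and 23.4 RPKM in the heart libraries. Hmox1, which opens the haem ring, stood at 53.6, 58.1, 48.6 and 52.1 RPKM in the pleural libraries and 382, 326, 510 and 408 RPKM in the heart libraries. Each heart library exceeded each pleural library for both, which the minimum fixed for Slc40a1. Log2 folds were -5.13 ± 0.15 (SE, limma adjusted p = 2.66e-16) and -2.91 ± 0.20 (SE, limma adjusted p = 2.08e-10). Erythroid genes, mostly globins, were also higher in the heart, summing to 370 to 1048 RPKM against 102 to 229 RPKM, with 8 of 9 tested members lower in pleural libraries, and their part in the iron genes was not tested. Among arginine and polyamine genes 6 were higher and 6 lower of 18 tested, and at an equal RPKM total 6 and 10. Arg1, which splits arginine into ornithine and urea, stood at 8.6, 9.92, 12.5 and 8.52 RPKM in the pleural libraries and 0.253, 0.238, 0.0891 and 0.26 RPKM in the heart libraries, and Gatm, which uses arginine to make creatine precursors, at 0.725, 0.879, 0.717 and 0.848 RPKM in the pleural libraries and 36.2, 42.1, 66 and 65.6 RPKM in the heart libraries. They moved in opposite directions, which the minimum fixed for both. Their log2 folds were 3.86 ± 0.20 (SE, limma adjusted p = 1.77e-12) and -5.31 ± 0.18 (SE, limma adjusted p = 1.29e-15). Purine signalling genes were 8 higher and 6 lower of 16 tested, and 2 were higher with an RPKM of 1 in all 8 libraries. Nt5e, the CD73 enzyme that makes adenosine, stood at 49.2, 46.3, 57.2 and 51.6 RPKM in the pleural libraries and 0.752, 0.401, 0.374 and 0.515 RPKM in the heart libraries, and P2ry6, a receptor for UDP, at 1.77, 1.48, 1.76 and 1.76 RPKM in the pleural libraries and 54.7, 66.8, 77.4 and 86 RPKM in the heart libraries. Log2 folds were 5.68 ± 0.19 (SE, limma adjusted p = 1.39e-15) for Nt5e and -5.01 ± 0.21 (SE, limma adjusted p = 4.71e-14) for P2ry6. The minimum fixed the direction of Nt5e.

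Housekeeping energy and translation genes were higher in pleural macrophages by smaller steps. All 34 cytosolic ribosomal protein genes were tested, 33 were higher, 31 of them under all 4 scalings, and the median log2 fold was 1.12. Of 34 oxidative phosphorylation genes 32 were higher, 18 under all 4 scalings, with a median log2 fold of 0.81. Ndufa1, a subunit of complex I, stood at 123, 164, 182 and 140 RPKM in the pleural libraries and 30.9, 28.4, 35.4 and 38.5 RPKM in the heart libraries, a log2 fold of 2.17 ± 0.20 (SE, limma adjusted p = 1.93e-08). Rps19, a small-subunit protein, stood at 582, 623, 689 and 587 RPKM in the pleural libraries and 163, 162, 207 and 272 RPKM in the heart libraries, a log2 fold of 1.65 ± 0.22 (SE, limma adjusted p = 2.09e-06). Heart library 5 was the highest of its group for both genes, and it held the highest heart value of 44.1% of all tested genes, of all 34 ribosomal genes and of 33 oxidative phosphorylation genes. Glycolysis and hypoxia genes were 18 higher and 8 lower of 30 tested. Pfkl, the liver form of phosphofructokinase, stood at 54.2 ± 4.57 RPKM in pleural and 8.25 ± 1.59 RPKM in heart libraries (SD, n = 4), with a log2 fold of 2.66 ± 0.18 (SE, limma adjusted p = 7.69e-11). Antioxidant genes were 15 higher and 4 lower of 26 tested, and 11 and 8 at an equal RPKM total. They included Gsr, glutathione reductase, at 61.9 ± 9.96 and 5.39 ± 0.79 RPKM and a log2 fold of 3.40 ± 0.18 (SE, limma adjusted p = 1.53e-12). Of 24 sterol synthesis genes tested 13 were higher and 11 were not called, and with RPKM totals made equal 7 were higher and 4 lower.

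Cell cycle genes were 30 higher and 5 lower of 39 tested on deposited RPKM, with a median log2 fold of 0.86. Only 12 of the 30 higher calls were kept under all 4 scalings, while all 5 lower calls were. Ccnd1 and Ccnd3, cyclins that start the cycle, stood at 90.2 ± 12 and 65.9 ± 4.44 RPKM in pleural and 20.8 ± 1.68 and 18.4 ± 3.22 RPKM in heart libraries (SD, n = 4). Cdkn1a, the cycle inhibitor p21, ran the other way, at 38.4 to 48.3 RPKM against 121 to 180 RPKM in the heart. Log2 folds were 2.08 ± 0.21 (SE, limma adjusted p = 4.59e-08) for Ccnd1, 1.83 ± 0.19 (SE, limma adjusted p = 1.13e-07) for Ccnd3 and -1.75 ± 0.21 (SE, limma adjusted p = 8.02e-07) for Cdkn1a. Lysosomal genes were 15 higher and 7 lower of 35 tested, near the shares of all genes, and 11 and 17 at an equal RPKM total. Ctsd, the protease cathepsin D, stood at 1141 ± 105 RPKM in pleural and 248 ± 33 RPKM in heart libraries, and Ctsc, cathepsin C, at 16 ± 1.23 and 105 ± 21.6 RPKM (SD, n = 4).

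Genes of other cell types were present beside the macrophage genes and differed between the groups. Cardiomyocyte markers summed to 27.8 to 34.1 RPKM in pleural and 366 to 754 RPKM in heart libraries, and 14 of 17 tested members were lower in pleural libraries, 13 of them having passed only through heart libraries. Myl2, a light chain of ventricular myosin, stood at 0.143, 0.362, 0.182 and 0.216 RPKM in the pleural libraries and 134, 122, 73.8 and 152 RPKM in the heart libraries, and Mb, the oxygen store myoglobin, at 0.202, 0.192, 0.193 and 0.16 RPKM in the pleural libraries and 114, 98, 61.1 and 116 RPKM in the heart libraries. The groups were fully apart, which the minimum fixed for Myl2 and Mb, and heart library 4 was the lowest of its group in both. Log2 folds were -7.34 ± 0.17 (SE, limma adjusted p = 3.28e-17) for Myl2 and -7.11 ± 0.16 (SE, limma adjusted p = 2.96e-17) for Mb. Myh7, the slow myosin heavy chain, and Ryr2, a calcium release channel, were the 2 members higher in pleural libraries, at 1.15 to 2.04 against 0.0644 to 0.525 RPKM and 1.25 to 1.94 against 0.251 to 0.719 RPKM. Both passed the minimum only through pleural libraries, which fixed their direction. Fibroblast markers summed to 1.94 to 2.21 RPKM in pleural and 191 to 731 RPKM in heart libraries, and all 9 tested were lower in pleural libraries, 8 of them having passed only through heart libraries, with 1 lower when an RPKM of 1 was required in all 8 libraries. Gsn, which encodes the actin-severing protein gelsolin, stood at 1.25, 1.22, 1.2 and 1.22 RPKM in the pleural libraries and 407, 123, 113 and 146 RPKM in the heart libraries, and Col3a1, a fibrillar collagen, at 0.0797, 0.0745, 0.0705 and 0.0308 RPKM in the pleural libraries and 40.9, 7.76, 8.48 and 8.58 RPKM in the heart libraries. Heart library 2 stood above the other heart libraries for both, and all 9 were again lower in pleural libraries without it. B cell markers ran the other way, at 41 to 95 RPKM in sum in pleural and 8.28 to 18.6 RPKM in heart libraries, with 7 of 8 tested members higher in pleural libraries, and 1 with an RPKM of 1 in all 8 libraries. Cd79a, a chain of the B cell receptor, stood at 27.3, 12.8, 17.6 and 12.9 RPKM in the pleural libraries and 4.58, 2.7, 0.416 and 0.511 RPKM in the heart libraries, with pleural library 2 highest. Endothelial markers had 2 tested members, Aqp1, lower in pleural libraries, and Fabp4, higher as given above. Mural markers had 2, Des and Rgs5, both lower and both having passed only through heart libraries, and no mesothelial marker reached the minimum. Neutrophil markers overlapped between the groups in sum, at 57.3 to 71.6 RPKM in pleural and 41.8 to 67.7 RPKM in heart libraries. The part of these other cells in the macrophage gene groups was not tested.

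**Figure D5:**
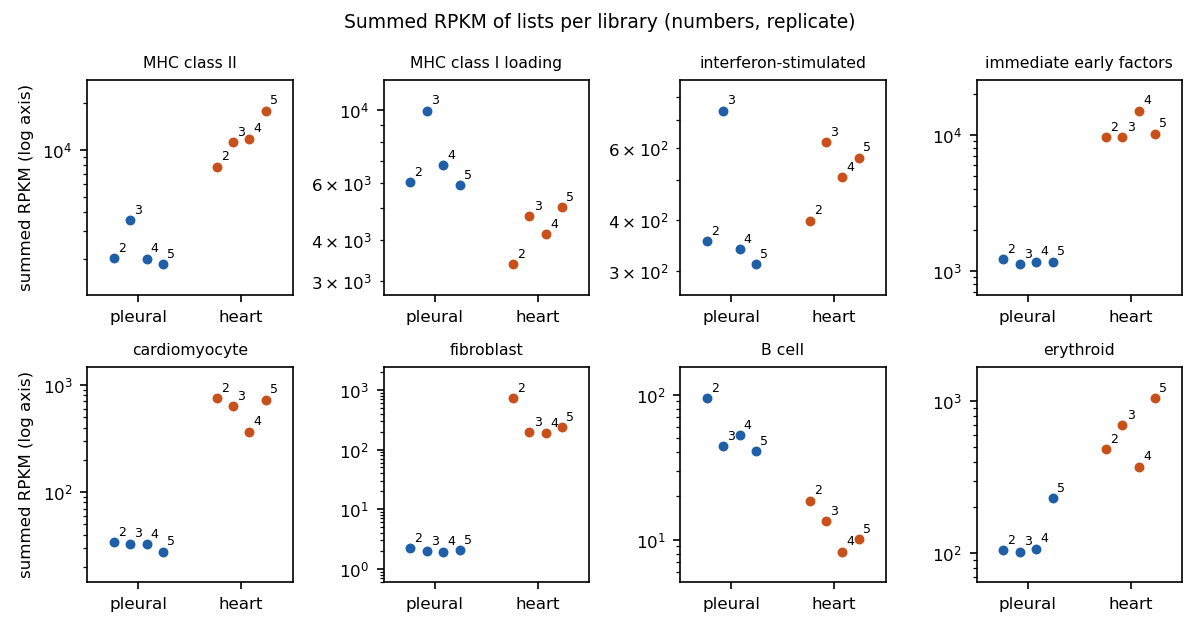
Summed RPKM on a log axis of all measured members of 8 lists in each pleural (blue) and heart (orange) library, with the replicate number beside each point. Pleural library 3 lies above its group for the interferon-stimulated list (739 against 312 to 356), heart library 2 for the fibroblast list (731 against 191 to 235) and heart library 4 for immediate early factors (15001 against 9599 to 10201).

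Against the other 2 cavities, pleural macrophages differed in few genes. Pleural and pericardial libraries differed in 2 of 10918 genes (0.0183%) by limma, 1 in each direction (0.00916% each), and pleural and peritoneal libraries in 59 (0.54%), 24 higher (0.22%) and 35 lower (0.321%) in pleural macrophages. Fos was among both sets, at 12.3 to 14.1 RPKM in pleural libraries, 40.5 to 65.2 RPKM in pericardial and 2.57 to 8.28 RPKM in peritoneal libraries. It was lower than in the pericardial group by 1.87 ± 0.25 on the log2 scale (SE, limma adjusted p = 0.00528) and higher than in the peritoneal group by 1.15 ± 0.25 (SE, limma adjusted p = 0.0429). The other gene called against the pericardial group was the microRNA gene Mir3064. Arg1 was lower in pleural than in peritoneal macrophages, with a log2 fold of -4.01 ± 0.20 (SE, limma adjusted p = 1.99e-10), while it was higher than in the heart, so that means were 9.9 ± 1.88 RPKM in pleural, 167 ± 23.4 RPKM in peritoneal and 0.21 ± 0.0812 RPKM in heart libraries (SD, n = 4). Marco and Stab1 were also lower in pleural than in peritoneal macrophages, with log2 folds of -1.46 ± 0.19 (SE, limma adjusted p = 0.000244) and -1.92 ± 0.18 (SE, limma adjusted p = 6.17e-06). No gene set pleural macrophages apart from both other cavities at an adjusted p under 0.05 by limma (0%), and 35 did so at an unadjusted p under 0.05. Gata6 stood at 40.8 ± 8.52 RPKM in pericardial and 41 ± 8.67 RPKM in peritoneal libraries (SD, n = 4), against 34.1 ± 2.19 RPKM in pleural ones, and was called in neither cavity comparison. These cavity comparisons share the pleural libraries with the heart comparison.

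Within genes, single transcripts moved in opposite directions in a few cases. The authors' deposited table gives mean log2 RPKM per group for 42551 transcripts, without an error. A mean of 1 or more in pleural or heart macrophages was listed for 12833 transcripts in the authors' deposited table, and 2245 genes had at least 2 such transcripts. Of these, 21 genes in the authors' deposited table had one transcript at least 1 log2 unit higher and another at least 1 lower in pleural macrophages. Tpm1, a tropomyosin of muscle and non-muscle cells, ranged in the authors' deposited table from a transcript with a pleural minus heart difference of -9.45 log2 units (means -3.31 and 6.14) to one with a difference of 5.54 (2.87 and -2.67). Rcan1, a calcineurin inhibitor with alternative first exons, had in the authors' deposited table a transcript at -1.59 in pleural and 3.24 in heart macrophages and another at 2.75 and 1.42. Ptpre, a tyrosine phosphatase with membrane and cytosolic forms, had in the authors' deposited table a transcript at 3.04 in pleural and -2.08 in heart macrophages and another at 0.12 and 3.05. These genes were chosen after their values were seen, and no test was made. Tpm1 also has muscle forms, and cardiomyocyte markers were higher in the heart libraries as given above, and their part in this difference was not tested.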

How the data were processed

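RNA was sequenced from sorted macrophages of the pleural cavity and the heart, with pericardial and peritoneal macrophages, 4 libraries each. The submitters' processing notes name TopHat2 2.1.1, bcl2fastq 2.17.1, mouse build mm10 and Partek 7.18.0723. The authors deposited RPKM per gene, a count of alignments per library, and a transcript table of log2 RPKM means per group. The sources used here do not state the annotation, the strand setting or how multi-mapped reads were treated, so overlapping and near-identical genes (globins, Hspa1a and Hspa1b, Lyz1 and Lyz2) are uncertain. Every RPKM column of a library was matched to its sample, and of the transcript table only the pleural and heart means were used.

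RPKM values are not counts, so no count test was run. Here log2(RPKM + 0.5) was fitted with limma 3.58.1 in R 4.3.3 over 16 libraries, 1 mean per group, 12 residual degrees of freedom, trended empirical Bayes variance, a two-sided moderated test and Benjamini-Hochberg adjustment over 10918 genes. The added 0.5 understates folds of low genes. The step was tested on simulated data. Permutation tests used SciPy 1.17.1. Alternatives were 3 scalings, additions of 0.1 and 1, other minimums, no variance trend, only the 8 libraries compared, a replicate block and each library left out. Gene coordinates and promoter windows come from RefSeq, build GRCm38.p6.

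The members, the 58 gene lists (40 programmes, 18 other cell types) and the naming rule were chosen with earlier results of these data known. The rule took the 15 largest rises and falls among called genes without group overlap (predicted genes and small RNAs were left out), up to 5 called members of each list by size, and 13 fixed genes. C1qa, Cxcl13, Il6, Myh7, Nfkbia and Ryr2, members listed as exceptions to a count, and transcripts were chosen after their values were seen. List symbols in the table numbered 1112, of which 853 were tested, and mitochondrially encoded genes were not analysed here.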

Additional observations from a re-analysis of the deposited data

Results flagged for a closer look

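Among genes with values in the text, 264 groups of 4 libraries were examined for a single library far from the other 3, by Dixon's 95% limit for 4 values. Such a library was found in 27 groups, where chance gives about 13, or 1 in 20.

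Pleural library 3 stood high in antigen presentation and interferon-related genes. It held 860 RPKM of Cd74, with 289 RPKM in the nearest other pleural library, 382 RPKM of H2-Aa against 123 RPKM, 458 RPKM of H2-Ab1 against 138 RPKM and 15.7 RPKM of Fcgr1 against 5.76 RPKM. It stood low for P2ry6, at 1.48 RPKM against 1.76 RPKM. Without pleural library 3 the log2 folds of Cd74, H2-Aa and Fcgr1 were -3.98, -4.26 and -2.70 (limma adjusted p = 1.2e-06, 7.43e-07 and 2.02e-07).

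Heart library 2 stood high in genes of connective tissue cells. It held 40.9 RPKM of Col3a1 against 8.58 RPKM in the nearest other heart library, 146 RPKM of Dcn against 49.9 RPKM, 407 RPKM of Gsn against 146 RPKM, 25.8 RPKM of Serping1 against 7.93 RPKM, 8.41 RPKM of Ptgis against 2.8 RPKM and 1.94 RPKM of Ltbp1 against 1.01 RPKM. Ptgis and Ltbp1 were nevertheless higher in every pleural library.

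Heart library 4 stood high in inducible genes. It held 376 RPKM of Cd83 against 147 RPKM, 100 RPKM of Egr2 against 62.8 RPKM, 426 RPKM of Klf4 against 229 RPKM, 289 RPKM of Nr4a1 against 173 RPKM and 1788 RPKM of Zfp36 against 1046 RPKM. It stood low for Arg1, at 0.0891 RPKM against 0.238 RPKM.

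The remaining libraries stood apart in single genes. Pleural library 4 was high for Egr1 (5.87 against 2.16 RPKM), Timd4 (210 against 133 RPKM) and Hopx (26.6 against 22 RPKM) and low for Hspa1b (13.2 against 39.3 RPKM) and Il10 (0.0924 against 0.218 RPKM). Pleural library 5 was low for Marco (64 against 76.8 RPKM) and pleural library 2 for Csf3r (32.3 against 44.6 RPKM). Heart library 3 was high for Cfb (12 against 5 RPKM) and low for Hspa1a (1614 against 1892 RPKM), and heart library 5 was high for Ccnd3 (23.2 against 17.1 RPKM). What sets these libraries apart was not tested.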

How the results depend on the processing

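The count of called genes stayed within 1.5 times of 6794 under every alternative run except a minimum absolute log2 fold of 1, which left 2582, 1655 higher and 927 lower. Scaling moved the split. Genes called higher fell to 2644 at an equal RPKM total, and genes called lower, 1559 on deposited values, numbered 3652 at an equal RPKM total, 2755 after median-ratio scaling and 2772 after quantile normalization. The lower count was 979 when an RPKM of 1 was required in all 8 libraries and 2997 with no minimum. Both of these changes alter which genes are tested. Leaving out 1 library at a time gave 6094 to 6825 called genes. The difference in RPKM totals was 101373 to 137891 with 1 library left out, always at p = 0.0571 by the exact permutation test, the smallest value that 3 against 4 allows. No gene was apart in pleural macrophages from both other cavities in any alternative except an addition of 0.1 RPKM, which gave 2. Of 225 single genes examined, the values of 218 kept direction and call in up to 18 alternatives each. Many of these genes were chosen for large folds among called genes, so their stability does not stand for called genes at large. Of the 6794 genes called on deposited values, 4191 kept their call and direction under all 4 scalings. Mertk changed sign, to -0.25 at an equal RPKM total, -0.05 after median-ratio scaling and -0.13 after quantile normalization. C1qa changed sign to -0.49, -0.28 and -0.38 under the same scalings in that order, and ran from -0.06 (without heart library 2) to 0.19 (without heart library 5) with 1 library left out. Lyz2 kept its fold of 2.69 but not its call (adjusted p = 0.059) with no minimum, and H2-K1, Il6, Mbp and Siglech crossed the threshold in at least 1 alternative. The causes were not tested. A fit with the replicate number as a block called 6524 genes, 5002 higher and 1522 lower. To look for pairing, each library was expressed per gene as its deviation from the mean of its own group. Correlations of these deviations between same-numbered pleural and heart libraries were 0.198, 0.212, 0.333 and -0.372 for numbers 2 to 5. By these deviations pleural libraries 2, 3 and 4 correlated best with the heart library of their own number, a hint of pairing from the data. Pleural library 5 correlated best with heart library 2. The labels state no pairing and number 5 fell below 0.1, so the fit without the block was kept. Depth differed less than 2-fold between libraries, and read counts per gene were not used, so the precision of low RPKM values is unknown.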

Other observations

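Several genes outside the lists of the report's main groups also differed between pleural and heart macrophages. Hdc, which makes histamine, stood at 16.2, 11.4, 20.1 and 14.9 RPKM in the pleural libraries and 0.26, 0.147, 0.137 and 0.31 RPKM in the heart libraries, a log2 fold of 4.48 ± 0.19 (SE, limma adjusted p = 4.83e-14), and it was the only one of 11 mast cell and basophil markers to reach the RPKM minimum. Tubb3, a tubulin best known from neurons, stood at 5.24, 7.71, 4.25 and 6.04 RPKM in the pleural libraries and 0.401, 0.358, 0.113 and 0.0589 RPKM in the heart libraries, a log2 fold of 3.11 ± 0.24 (SE, limma adjusted p = 7.59e-10). Hopx, a homeodomain protein that does not bind DNA, stood at 21.7, 21.5, 26.6 and 22 RPKM in the pleural libraries and 5.22, 4.28, 4.04 and 6.23 RPKM in the heart libraries, a log2 fold of 2.12 ± 0.19 (SE, limma adjusted p = 1.2e-08). Each of the 3 genes was higher in every pleural library than in any heart library, which the minimum fixed for Hdc and Tubb3. Lrg1, a secreted leucine-rich glycoprotein, stood at 135, 181, 236 and 150 RPKM in the pleural libraries and 2.23, 0.74, 1.3 and 1.68 RPKM in the heart libraries, and Padi4, which converts protein arginine to citrulline, at 365, 430, 433 and 414 RPKM in the pleural libraries and 3.7, 2.39, 2.77 and 3.8 RPKM in the heart libraries. For Lrg1 and Padi4 the log2 folds were 6.49 ± 0.25 (SE, limma adjusted p = 1.22e-14) and 6.83 ± 0.17 (SE, limma adjusted p = 7.34e-17). Mmp9, a gelatinase, was higher in the heart, at 3.03 to 4.82 RPKM in pleural and 17.7 to 21.3 RPKM in heart libraries, while Csf3r, the receptor for the neutrophil growth factor, was higher in pleural macrophages, at 32.3 to 46.6 and 10.3 to 13 RPKM. Log2 folds were -2.21 ± 0.17 (SE, limma adjusted p = 1.02e-09) for Mmp9 and 1.82 ± 0.14 (SE, limma adjusted p = 1.41e-09) for Csf3r.

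The whole cardiomyocyte marker list summed to 27.8 to 34.1 RPKM in pleural, 30.4 to 43.9 RPKM in pericardial and 32.6 to 48.6 RPKM in peritoneal libraries, so pleural libraries were not above the other cavities. The 2 members Myl2 and Mb, chosen after their values were seen, stood at means of 0.226 and 0.187 RPKM in pleural libraries, against 0.00751 and 0.00576 RPKM in pericardial and 0.0103 and 0.00547 RPKM in peritoneal libraries. With 0.1 in place of 0.5 added before the logarithm, Mb and Myl2 were the 2 genes higher in pleural libraries than in both other cavities, at limma adjusted p of 0.0248 and 0.0363.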
